A study of Mus musculus with 6 samples.

Results

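The actin genes Acta1, Acta2, Actg2, Actb and Actg1 are 5 of the 16423 gene symbols in an FPKM table of differentiated C3H10T1/2 cells, and were taken from it by symbol. FPKM scales the fragments counted on a gene by its length and by the library total, so comparing levels of different genes rests on the gene lengths used. The lengths recovered from the FPKM values differ from the GRCm38 exon unions, being 2834 against 2196 bases for Acta2, 1920 against 2679 for Actb and 1953 against 2658 for Actg1. Which lengths fit these cells' transcripts was not tested. The ratio of a single gene between groups does not depend on its length. They were selected on earlier results of these same values, namely FPKM in siYBX1 against siNC and each gene's share of the summed actin FPKM. Their differences in level and share between the groups are therefore described with the spread of the libraries and carry no test.

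C3H10T1/2 is a line of mesenchymal cells from mouse that can become adipocytes. Cells of both groups were first differentiated toward fat for 2 days with the phosphodiesterase inhibitor IBMX (0.5 mM), 1 μM dexamethasone, 850 nM insulin, 1 nM triiodothyronine, 125 nM indomethacin and 1 μM rosiglitazone, followed by 2 days with triiodothyronine, insulin and rosiglitazone alone. On day 4 they received a control siRNA (siNC, labelled wild type, 3 libraries) or siRNAs against Ybx1 (siYBX1, labelled as knockdown, 3 libraries), and RNA was taken 48 h later. Separate cultures are not stated for the replicates, and every p-value below therefore refers to the spread of the libraries, which may be technical. Whole reads could be recovered from the FPKM steps, which put the totals between 34207232 and 35299269 reads a library in siNC and between 31957411 and 35410308 in siYBX1. Ybx1 mRNA, the target, was 135, 134 and 130 FPKM in the siNC libraries and 59.3, 67.9 and 61.3 FPKM in the siYBX1 libraries, a ratio of means of 0.473.

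Actin monomers assemble into the filaments that give a cell its shape and its contractile force. Mammals make the cytoplasmic β-actin (Actb) and γ-actin (Actg1) in nearly every cell, α- and γ-smooth muscle actin (Acta2 and Actg2) in contractile cells and myofibroblasts, and α-skeletal (Acta1) and α-cardiac actin (Actc1) in striated muscle. Several actin genes are transcribed under serum response factor (SRF), which binds the CArG box and whose cofactors of the MRTF family are held back by free actin monomers. In adipocyte differentiation, loss of filamentous actin is a known early step. YBX1 carries a cold-shock domain, binds both RNA and DNA, and takes its name from the Y-box, an inverted CCAAT sequence.

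The actins are close copies of each other, which bears on how reads were told apart, so their coding sequences were compared first. In GENCODE vM21 transcripts the last 1098 coding bases of the 5 genes align without gaps. Of these positions 798 (72.7%) hold the same base in all 5. Actb and Actg1 were the closest pair, at 89.1% identical bases, and Acta2 and Actg1 the most distant of the 5, at 82.4%.

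The read length and the handling of reads that match several genes are not given in the sources used here. Exact windows of each transcript were therefore searched in the annotated transcripts of all other genes. Of 50-base windows, 2.57% of Actb, 2.00% of Acta1, 1.94% of Actg1 and 0.352% of Acta2 occurred in another actin gene, and of Actg2 none of 1284 did. At 100 and 150 bases no window of any of the 5 occurred in another actin gene. Actg1 differed from the rest in its other copies. Of its 100-base windows 51.1% occurred in the transcript of some other annotated gene, and 44.4% of all its windows in Gm12715, against 1.10% for Actb and none for Acta1 (1347 windows), Acta2 (1936) and Actg2 (1234). The predicted copies Gm12715, Gm8399 and Actg-ps1 have no row under these symbols in the deposited FPKM table, so their levels could not be given. Of the 5, the Actg1 level thus has the largest part of its transcript open to the way multiply matching reads were counted, and its effect on the level was not tested. The level of the gene that shares a window also matters. At 50 bases, 2.00% of Acta1 windows occurred in Actb, which measured 1131 to 1515 FPKM against 0.198 to 2.93 FPKM for Acta1. Whether reads of Actb entered the Acta1 level was not tested either.

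A promoter sequence was found by symbol for 3 of the 5 genes, Acta1, Acta2 and Actg1, which were all higher in siYBX1. The 250 bases upstream of each annotated start are given from RefSeq (build GRCm38.p6, another build than the one in the submitters' processing notes), 5′ to 3′ on the gene's strand. Capitals mark CArG boxes and near matches that carry 1 C or G among their inner bases.
Acta1: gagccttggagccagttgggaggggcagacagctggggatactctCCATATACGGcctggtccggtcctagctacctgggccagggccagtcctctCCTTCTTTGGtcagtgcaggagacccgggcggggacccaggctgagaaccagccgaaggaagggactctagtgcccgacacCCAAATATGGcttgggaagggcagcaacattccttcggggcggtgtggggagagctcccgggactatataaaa
Acta2: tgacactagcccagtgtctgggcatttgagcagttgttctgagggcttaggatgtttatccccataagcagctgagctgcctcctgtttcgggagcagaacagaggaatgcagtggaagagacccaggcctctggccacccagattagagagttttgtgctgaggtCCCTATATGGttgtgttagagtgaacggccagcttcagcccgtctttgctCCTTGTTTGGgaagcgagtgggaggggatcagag
Actg1: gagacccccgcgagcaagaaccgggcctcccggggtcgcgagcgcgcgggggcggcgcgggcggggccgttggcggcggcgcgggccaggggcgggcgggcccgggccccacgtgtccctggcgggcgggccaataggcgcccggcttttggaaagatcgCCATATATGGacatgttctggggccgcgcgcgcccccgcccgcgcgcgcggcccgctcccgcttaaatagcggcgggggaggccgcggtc
These lie at chr8:123894776-123895025, chr19:34255374-34255623 and chr11:120348496-120348745, all on the minus strand. Acta1 held a full CArG box at -73 to -64 from the start and near matches at -205 to -196 and -154 to -145. Acta2 held no full box but near matches at -84 to -75 and -34 to -25. Actg1 held a full box at -90 to -81. A full box occurs in 1.48% of 32536 distinct upstream windows of this length and a near match in 7.23%. The sequence CATTCC, the core of the site of TEAD factors, was searched on both strands. It occurred in Acta1 (-46 to -41) and, on the opposite strand, in Acta2 (-146 to -141), and it occurs in 12.6% of all windows. CCAAT, searched on both strands, occurred only in Actg1 among the 3 (-120 to -116), and occurs in 33.8% of all windows. None of these matches overlapped another. A match is a description of the letters and shows no binding.

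Acta2, the α-smooth muscle actin and the usual marker of myofibroblasts, showed the largest difference in FPKM. It measured 484, 537 and 533 FPKM in siNC and 1711, 1643 and 1659 FPKM in siYBX1. The lowest knockdown library was 3.06-fold above the highest control, and within each group the libraries lay close together. The means were 518 ± 29.7 and 1671 ± 35.7 FPKM (SD, n = 3 each), a ratio of 3.23 and a difference of 1153 FPKM. From rank 110 of the table's genes in the siNC mean it came to rank 19 in siYBX1.

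Actg2, the γ-smooth muscle actin of visceral muscle, had a larger ratio at a far lower level. It measured 6.14, 5.31 and 6.96 FPKM in siNC and 26.8, 26.5 and 26.6 FPKM in siYBX1. The groups did not overlap, and the siYBX1 libraries were nearly equal, with a coefficient of variation of 0.536% against 13.4% in siNC. Counting alone makes 1127 to 1236 reads vary by more than 0.536%, so this value understates the spread to be expected in siYBX1. The ratio of means was 4.34, and 239 to 323 recovered reads stood behind each control value against 1127 to 1236 in siYBX1. By the deposited FPKM, Acta2 remained 62.7 ± 1.00 times as abundant as Actg2 in siYBX1, and 85.5 ± 13.6 times in siNC (SD, n = 3 each). Both multiples depend on the gene lengths, which for Actg2 were 1315 bases recovered against 1557 in the exon union. With the exon union lengths, added after seeing the data, both multiples are larger. Mean levels of Acta2 and Actg2 were then 2156 and 22.5 in siYBX1 and 669 and 5.18 in siNC.

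Acta1, the α-actin of skeletal muscle, was nearly absent in both groups. It measured 0.641, 0.502 and 0.198 FPKM in siNC and 1.39, 2.93 and 2.39 FPKM in siYBX1. These values rest on 35, 27 and 11 reads in siNC and 70, 163 and 125 reads in siYBX1, where 1 read is worth 0.0180 to 0.0199 FPKM. The groups did not overlap, but the smallest ratio between single libraries was 2.18 and the largest 14.8. The ratio of means, 5.00, is therefore the least precise of the 5. Acta1 had a mean under 1 FPKM in siNC and passed the filter on low values, a mean of at least 1 FPKM over 6 libraries, only through siYBX1. The other 4 passed it in either group.

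Actb, the β-actin often used as a reference for mRNA levels, was the 1 actin that was lower after knockdown. It measured 1515, 1356 and 1402 FPKM in siNC and 1131, 1195 and 1162 FPKM in siYBX1. The highest knockdown library was at 0.881 of the lowest control, so the groups did not overlap. The means were 1425 ± 81.9 and 1163 ± 31.7 FPKM (SD, n = 3 each), a ratio of 0.816, or a change of -18.4%.

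Actg1, the cytoplasmic γ-actin, was higher, by a smaller ratio than the smooth muscle actins. It measured 928, 827 and 875 FPKM in siNC and 1019, 1222 and 1235 FPKM in siYBX1. The siYBX1 replicate 1 library lay 1.10-fold above the highest control and well under the other siYBX1 libraries. The means were 877 ± 50.7 and 1159 ± 121 FPKM (SD, n = 3 each), a ratio of 1.32.

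**Figure D1:**
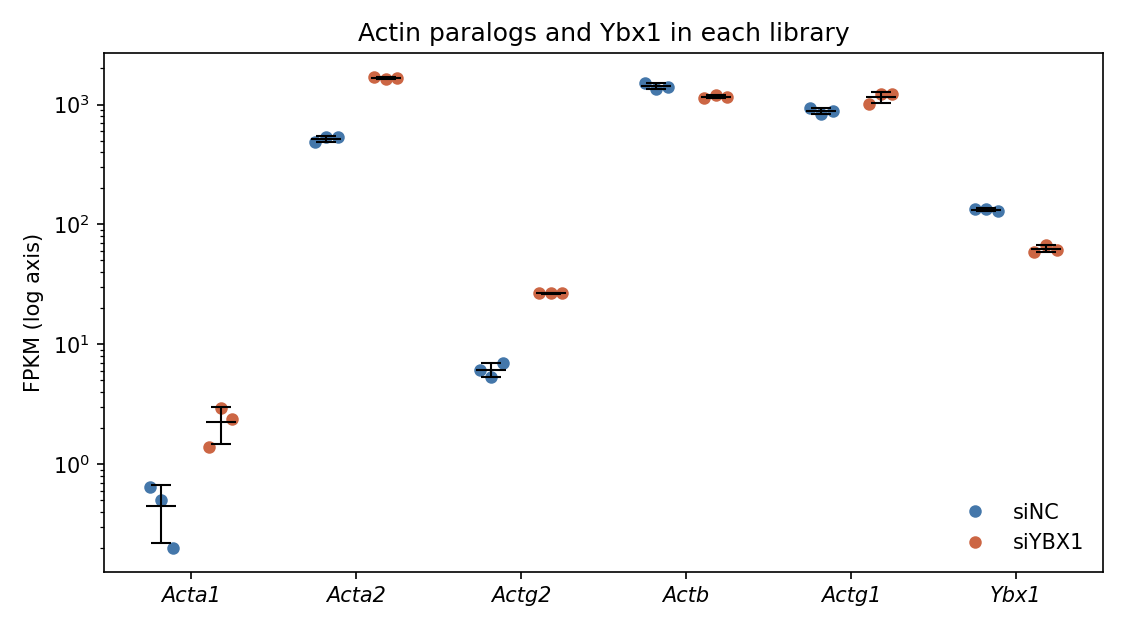
FPKM on a log axis for the 5 actin genes and Ybx1, with 1 point per library (siNC blue, siYBX1 orange) and the mean with its SD in black. Acta1, Acta2, Actg2 and Actg1 lie higher in siYBX1, Actb and Ybx1 lower, and the groups do not overlap for any of the 6 genes.

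So 4 actins lay wholly higher and 1 wholly lower in siYBX1. Of 10341 genes that passed the filter, 19.0% had groups that did not overlap with siYBX1 higher, and 21.9% with siYBX1 lower. By the ratio of means, Acta1, Actg2 and Acta2 were at places 2, 3 and 6 from the top of these genes, and only 6 genes reached a ratio of 3. Acta1 is among these genes only through its siYBX1 values, and its place rests on 11 to 35 reads in the siNC libraries. Actg1 was at place 234 from the top and Actb at place 965 from the bottom, so neither was extreme. These places follow from the contrast for which the genes were proposed and carry no test.

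The summed level of the 5 actins was 2934, 2726 and 2818 FPKM in siNC and 3889, 4090 and 4084 FPKM in siYBX1, a ratio of 1.42. Of the difference of 1195 FPKM in the sum, 1153 FPKM were Acta2. The ratio of the sums depends on the gene lengths. With the GRCm38 exon union lengths, added after seeing the data, the summed means were 2339 in siNC and 3866 in siYBX1, a ratio of 1.65. The 3 muscle actins together went from 525 ± 29.4 to 1700 ± 35.1 FPKM (SD, n = 3 each). The 2 cytoplasmic actins together measured 2444, 2183 and 2278 FPKM in siNC and 2150, 2417 and 2396 FPKM in siYBX1. Their sums overlapped, with means of 2301 ± 132 and 2321 ± 149 FPKM, as Actb was lower by 262 FPKM and Actg1 higher by 282 FPKM. Reads on the 5 genes made up 0.579% to 0.614% of the table's reads in siNC and 0.910% to 0.944% in siYBX1.

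Within the cytoplasmic pair the balance differed between the groups. The ratio of Actb to Actg1 was 1.63, 1.64 and 1.60 in siNC and 1.11, 0.977 and 0.941 in siYBX1. In controls β-actin mRNA exceeded γ-actin mRNA in each library by a nearly constant factor, and after knockdown they were about equal. The Actb to Actg1 ratio does not depend on the library total, since that divides out, but it does depend on how reads of the Actg1 copies were counted.

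**Figure D2:**
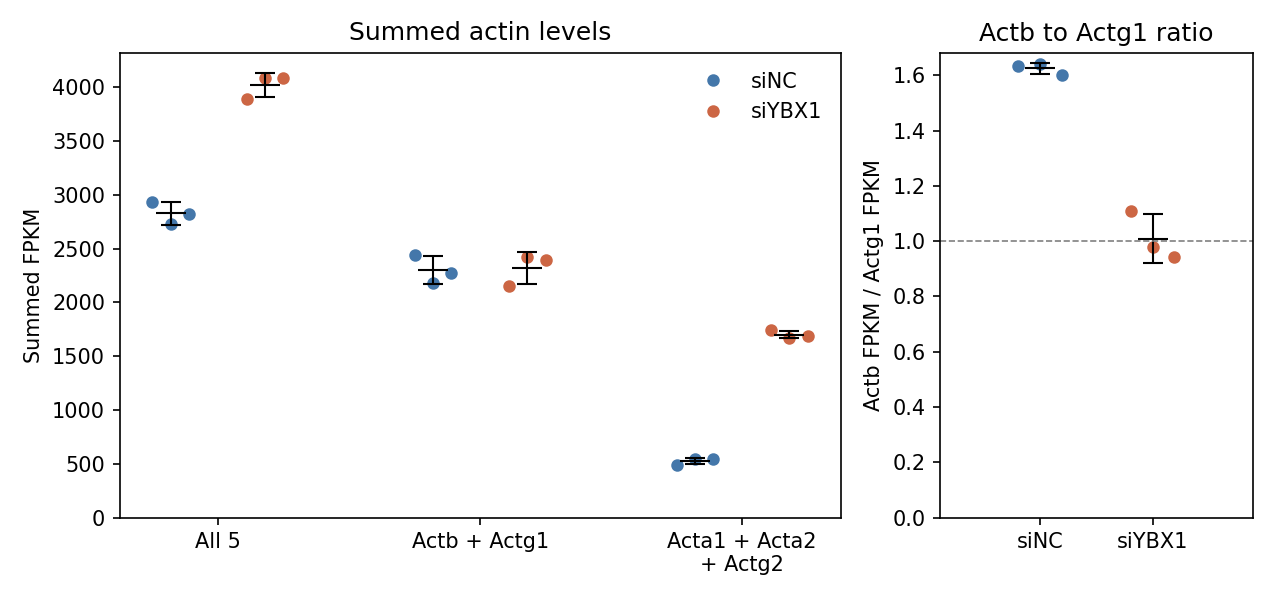
Left, summed FPKM of all 5 actins, of the cytoplasmic pair and of the 3 muscle actins; right, the Actb to Actg1 ratio with equality dashed. Points are libraries (siNC blue, siYBX1 orange) and bars the mean with its SD; the cytoplasmic sums overlap at about 2301 and 2321 FPKM while the ratio goes from 1.62 to 1.01.

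As a share of the summed actin FPKM, Acta2 took 16.5%, 19.7% and 18.9% in the siNC libraries and 44.0%, 40.2% and 40.6% in the siYBX1 libraries. Its mean share went from 18.4 ± 1.68% to 41.6 ± 2.09% (SD, n = 3 each), and it became the most abundant actin mRNA. With the exon union lengths its mean share was 28.6% in siNC and 55.8% in siYBX1. Actb took 51.6%, 49.7% and 49.8% in siNC and 29.1%, 29.2% and 28.4% in siYBX1. Its mean share dropped by 21.5 percentage points, to 0.574 of the control share, while its FPKM was at 0.816 of the control level. Actg1 held 31.0 ± 0.652% in siNC and 28.8 ± 2.24% in siYBX1. Its siYBX1 replicate 1 library had 26.2% and the others 29.9% and 30.2%, just under the 30.3% to 31.6% of siNC. Actg2 went from 0.217 ± 0.0268% to 0.663 ± 0.0227% and Acta1 from 0.0158 ± 0.00775% to 0.0553 ± 0.0181%. Without siYBX1 replicate 1 the Actg1 share differed by -0.950 points, against -2.24 points with all libraries.

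**Figure D3:**
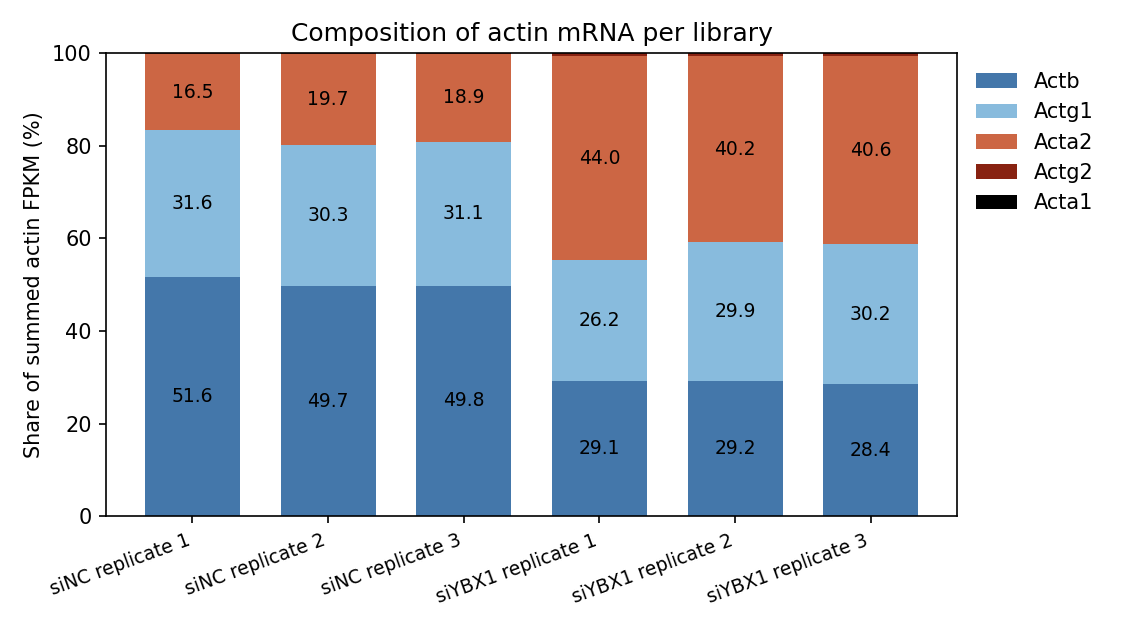
Share of each actin in the summed FPKM of the 5 genes, in percent, 1 bar per library with the shares of the 3 abundant genes printed. Acta2 takes 16.5% to 19.7% in siNC and 40.2% to 44.0% in siYBX1, and Actb 49.7% to 51.6% and 28.4% to 29.2%; Actg2 and Acta1 are thin bands at the top.

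In siNC the order of levels was Actb, Actg1, Acta2, Actg2 and Acta1, and no library of one gene overlapped the next. With the GRCm38 exon union lengths, an alternative added after seeing the data, Acta2 (624 to 693) and Actg1 (608 to 682) overlapped in siNC, so their order there depends on the length. In siYBX1 Acta2 came first, above every library of Actb and Actg1, with either set of lengths. Actb (1131 to 1195 FPKM) and Actg1 (1019 to 1235 FPKM) then overlapped and had no order beyond their spread. Actg2 and Acta1 followed, clearly apart. Other actin genes in the table were at the level of single reads. Actc1, the cardiac actin, had 2, 1 and 4 reads in siNC and 0, 0 and 2 in siYBX1. Actl9 had at most 4 reads in a library, and Actl10, Actl7b and Actrt3 at most 1.

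In bulk RNA, more cells of a contractile type and more actin mRNA per cell cannot be told apart. Of 10 smooth muscle marker genes 6 rose and none fell among 8 tested, by limma with adjusted p under 0.05. Over all tested genes 9.54% were called higher and 11.1% lower. The summed level of the 10 markers was 186 to 198 FPKM in siNC and 470 to 509 FPKM in siYBX1. Myl9 alone made up 89.6 ± 10.9 FPKM of this sum in siNC and 301 ± 18.2 FPKM in siYBX1 (SD, n = 3 each). Cnn1 (at most 0.140 FPKM in any library) and Myh11 (at most 0.142 FPKM) were near 0 and not tested. Smtn went from 9.59 ± 0.978 to 8.77 ± 0.309 FPKM and Des from 4.41 ± 0.640 to 3.94 ± 0.660 FPKM (SD, n = 3 each), and neither passed. Mylk, Lmod1, Cald1, Synpo2, Tagln and Myl9 were the 6 that rose. All 8 skeletal muscle markers in the table, of 12 sought, averaged under 1 FPKM, with sums of 1.29 to 1.39 and 1.43 to 1.91 FPKM. All 7 cardiac markers in the table, of 8, did too, with sums of 1.20 to 1.47 and 1.09 to 1.51 FPKM. The 8 adipocyte markers summed to 2148 to 3002 FPKM in siNC and 2677 to 3160 FPKM in siYBX1, and none of 7 tested passed with limma (2 at an unadjusted p under 0.05, and 1 called by voom on recovered reads). Of 7 brown adipocyte markers 2 averaged at least 1 FPKM and neither passed with limma (0 at an unadjusted p under 0.05 and 0 with voom), and their sums were 121 to 156 and 122 to 196 FPKM. The 8 preadipocyte and fibroblast markers (7 in the table) gave 1 rise and no fall among 5 tested, namely Col1a1, with sums of 797 to 821 and 805 to 854 FPKM. Of 6 pericyte markers 1 of 3 tested, Notch3, fell, and sums were 17.3 to 19.9 and 17.7 to 21.3 FPKM. Endothelial markers (4 in the table) summed to at most 0.149 FPKM in every library. The 5 leukocyte markers summed to 10.9 to 24.4 and 6.83 to 11.2 FPKM, nearly all of it Cd68, which did not pass with limma (adjusted p = 0.0681) and was called by voom. The part of these cell types in the actin levels was not tested.

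Genes that make, bind or bundle actin, SRF with its cofactors and targets, and common reference genes were then tested. The fit ran over all 10341 genes, and the lists were drawn up with earlier results of these data known. Of these genes 987 (9.54%) were called higher and 1145 (11.1%) lower, with a median log2 fold change of -0.011. With each library rescaled to TPM, 11163 genes passed the filter, with a median log2 fold change of -0.065. The calls were then 646 higher and 1566 lower. They were 593 and 608 without siYBX1 replicate 1, 543 and 762 without siYBX1 replicate 2, and 679 and 751 without siNC replicate 3. Of 113 distinct listed genes that were tested, 52 rose and 6 fell, and over the 6 sets that leave out 1 library 42 to 51 rose.

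Proteins that hold or recycle actin monomers come first. Of 12 tested, 9 rose and none fell, with a median log2 fold change of 0.42. Dstn, destrin, which severs filaments and frees monomers, went up from 218 ± 14.9 to 398 ± 9.01 FPKM (SD, n = 3), a log2 fold change of 0.87 with SE 0.06 (limma adjusted p = 2.32e-05). Pfn2, a profilin, which loads monomers onto growing ends, rose from 13.9 ± 1.08 to 24.0 ± 1.02 FPKM (0.75 on the log2 scale, limma adjusted p = 7.60e-05). The count was 9 in each of the 14 alternatives tried.

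Actin needs the chaperonin CCT and the prefoldin complex to fold. Of 17 tested genes of folding and maturation 8 rose and none fell, with a median of 0.16. Pfdn4, a prefoldin subunit, rose from 15.2 ± 2.29 to 22.5 ± 2.38 FPKM (limma, adjusted p = 0.00550), which no longer passed with no filter on low values (adjusted p = 0.0540, within 0.00277 to 0.0540 over all alternatives). Pdcl3, a phosducin-like cofactor of CCT, rose from 38.7 ± 1.65 to 55.4 ± 2.68 FPKM (0.51 on the log2 scale, limma adjusted p = 0.000328).

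The actin-related proteins and the Arp2/3 complex, which starts branched filaments, follow. Of 16 tested, 7 rose and none fell, with a median of 0.14. Actr3, a core subunit of the complex, rose from 81.4 ± 1.55 to 104 ± 2.41 FPKM (0.34 on the log2 scale, limma adjusted p = 0.00119). Actr10, a dynactin subunit, rose from 23.5 ± 1.24 to 28.7 ± 1.96 FPKM (adjusted p = 0.0125, limma; 0.0541 without siYBX1 replicate 2 and 0.0512 with no filter on low values, over a range of 0.00576 to 0.0541). The count rested on single libraries, being 2 when either siYBX1 replicate 1 or siYBX1 replicate 2 was left out and 4 when siNC replicate 3 was. It was 3 with TPM, with quantile normalization or with no filter. In 4 alternatives (TPM, quantile normalization, length correction and without siNC replicate 1) 1 gene fell.

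Formins and other nucleators of straight filaments had more falls than rises. Of 11 tested, 1 rose and 3 fell, with a median of -0.09. Lmod1, a leiomodin of smooth muscle, rose from 15.5 ± 0.524 to 30.6 ± 2.44 FPKM (0.94 on the log2 scale, limma adjusted p = 1.55e-05). The formin Diaph3 fell from 10.9 ± 0.426 to 8.21 ± 0.374 FPKM (adjusted p = 0.00244) and Fmnl3 from 11.4 ± 0.253 to 9.11 ± 0.614 FPKM (adjusted p = 0.00889, limma). The remaining call was the formin Fhod1 (-0.24, limma adjusted p = 0.0189), named after its value was seen and lost in 3 alternatives, among them leaving out siNC replicate 3 or siYBX1 replicate 1 (range 0.0132 to 0.0759).

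Of 15 tested genes that cap or crosslink filaments or belong to the Ena/VASP family (Vasp, Enah and Evl) 10 rose and 1 fell, with a median of 0.23. Actn1, a non-muscle α-actinin, rose from 49.0 ± 2.39 to 78.9 ± 1.81 FPKM (0.68 on the log2 scale, limma adjusted p = 4.045e-05). Fscn1, fascin, which bundles filaments, rose from 47.3 ± 1.70 to 73.3 ± 0.900 FPKM (adjusted p = 4.46e-05, limma). Evl, of the Ena/VASP family, fell from 11.3 ± 0.372 to 8.08 ± 0.289 FPKM (adjusted p = 0.000786, limma).

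Of SRF and its cofactors, Srf itself rose, from 11.8 ± 1.09 to 17.8 ± 0.699 FPKM (0.56 on the log2 scale, limma adjusted p = 0.000553), and was the only rise among 8 tested. Elk4, an ETS-family partner of SRF, fell at adjusted p = 0.0442 (limma), a call lost in 10 of 14 alternatives, among them the removal of any 1 library (range 0.0265 to 0.146). Of 21 tested SRF target genes other than actins 16 rose and 1 fell, with a median of 0.52. The actin-binding protein transgelin (Tagln), from 7.90 ± 1.24 to 50.3 ± 4.24 FPKM, and the myosin light chain gene Myl9, from 89.6 ± 10.9 to 301 ± 18.2 FPKM, rose most (adjusted p = 2.61e-07 and 1.17e-06, limma). Egr1, an immediate early gene, fell from 13.7 ± 0.814 to 10.5 ± 1.44 FPKM (adjusted p = 0.0154, limma; 0.0504 without siYBX1 replicate 2 and 0.0798 with no filter, over a range of 0.00667 to 0.0798). Of these 21 genes 6 also stand in another list. Tagln, Myl9 and Lmod1 are among the smooth muscle markers and counted in both, Lmod1 also stands with the nucleators, Flna and Actn1 with the crosslinkers, and Fhl2 with the SRF cofactors.

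Since Actb often serves as a reference gene, 17 other common reference genes were set beside it. Their ratios of means ran from 0.880 for Pgk1 to 1.30 for Tuba1a, and none lay below the 0.816 of Actb. Of these 17, 3 rose and none fell, with a median log2 fold change of 0.04, and 1 fell with quantile normalization. Tuba1a, an α-tubulin, rose from 376 ± 17.2 to 490 ± 44.9 FPKM (adjusted p = 0.00651, limma). Rpl13a, a ribosomal protein gene, rose from 476 ± 4.42 to 556 ± 20.7 FPKM (limma, adjusted p = 0.0211), and no longer passed in 7 of 14 alternatives (range 0.00708 to 0.164). The remaining rise was Hprt, named after its value was seen (ratio of means 1.14, limma adjusted p = 0.0404). It was lost in 10 of 14 alternatives (range 0.0319 to 0.146). The count of rises was 1 when siNC replicate 2 or 3, or siYBX1 replicate 1 or 2, was left out. The Actb level relative to a reference depended on which was taken. Relative to Eef1a1 the siYBX1 mean was 0.816 of the siNC mean, relative to Tbp 0.787, to Hprt 0.713 and to Gapdh 0.904, where the libraries overlapped (7.74 to 8.56 and 6.70 to 8.52).

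**Figure D4:**
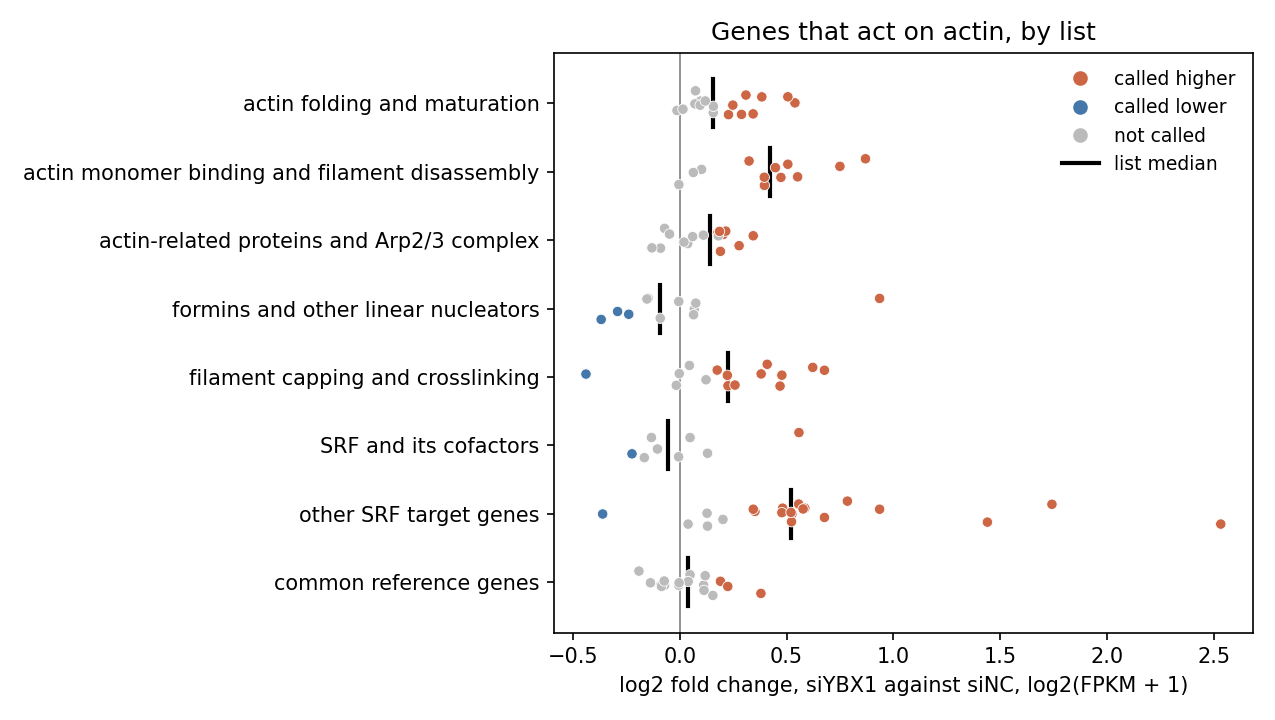
Log2 fold change of siYBX1 against siNC on the log2(FPKM + 1) scale for each tested gene of 8 lists, coloured by call, with the list median in black. Medians run from -0.09 for formins and other nucleators to 0.52 for SRF target genes other than actins.

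For Acta2, Actg2, Actg1 and Actb, the genes with the most similar library profile were sought among 10138 others. Likeness was the root mean square difference, over the 6 libraries, of log2(FPKM + 1) after subtracting each gene's siNC mean. Myl9 was nearest to Acta2 (0.077) and to Actg2 (0.20), and these actins were each other's second (0.22). Ccn2, a matricellular protein gene, was the third for both, at 0.25 and 0.39. Nearest to Actg1 were Anxa3 (0.034), Tuba1a (0.044) and Mfap3l (0.057), which share its lower value in siYBX1 replicate 1 than in the other siYBX1 libraries. Nearest to Actb were Polh, Mcm4 and Mul1, at 0.023, 0.023 and 0.025. The siYBX1 deviations in this measure carry the difference between the groups, on which the actins were selected. Genes with a similar ratio of siYBX1 to siNC therefore lie near each other by construction. All profiles also share the same 6 libraries and their totals, so likeness is a description only.

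**Figure D5:**
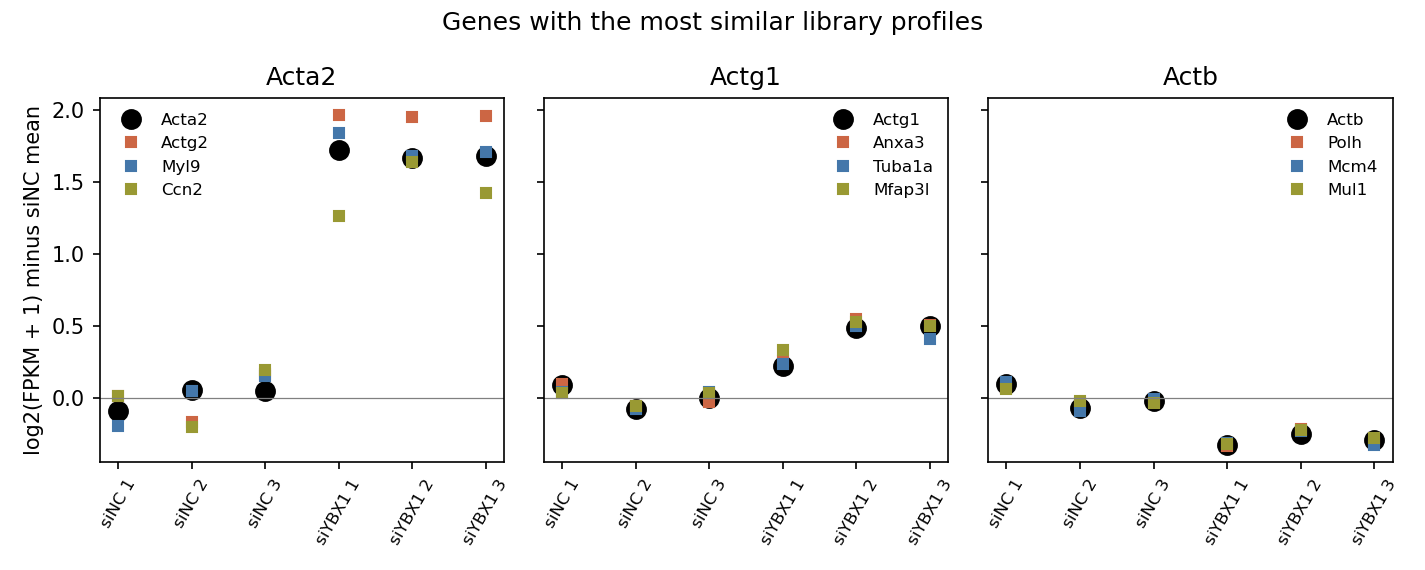
Log2(FPKM + 1) minus the siNC mean in each of 6 libraries for Acta2, Actg1 and Actb (black) and for the 3 genes with the nearest profile (coloured squares). Acta2 and its neighbours lie far above their controls in all 3 siYBX1 libraries, among siYBX1 libraries Actg1 and its neighbours lie lowest in replicate 1, and Actb and its neighbours lie just under 0.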

How the data were processed

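Read length, strandedness and the handling of shared reads are not given in the sources used here. Per the labels' protocols, RNA was taken with Trizol and 1.3 μg of total RNA went into each library. The build GRCm39 and the tools HISAT2, HTSeq and fastp are listed in the submitters' processing notes, without versions or roles. The authors deposited FPKM values for 16423 symbols, and each con or si column was assigned by its name and number to a sample of siNC or siYBX1.

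Library totals and whole reads were recovered from the 1-read steps of the FPKM values, using RefSeq gene spans for the totals and, for each gene, the smallest length that made its values whole within 0.02 reads. Such a length was found for 16423 genes, and can be shorter than the true one if all reads of a gene are multiples of one number. In pairs of libraries the reads differed by a chi-square per gene of at least 4.64, so no library was a copy of another. siNC replicate 1 stood furthest from the other controls, at 19.85 and 23.25.

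Testing was by limma, on genes whose FPKM averaged 1 or more over the 6 libraries (limma 3.58.1, R 4.3.3; intensity trend, log2(FPKM + 1), no covariate, two-sided, Benjamini-Hochberg over all tested genes, threshold 0.05), after a check on simulated data. Fold changes on this scale understate changes of low genes. Tables and figures used Python 3.11.15. The members and lists were chosen with earlier results of these data known. Named genes are the 5 actins, Ybx1, other actin genes, the 2 largest called rises and falls of each list of actin-related genes, and the 3 genes most like each actin. Some of the items this rule names are not reported here. Alternatives were a pseudocount of 0.1, TPM, quantile normalization, no filter, a mean of at least 5 FPKM, a replicate block, limma's voom on recovered reads with a mean of at least 10, and leaving out each library. A loess correction for gene length (span 0.3), voom for single actins, and GRCm38 exon union lengths for the actins, were added after seeing the data.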

Additional observations from a re-analysis of the deposited data

How the results depend on the processing

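No actin changed direction under any alternative tried. For the sets that leave out 1 library and for the pseudocount this was fixed beforehand, since the groups did not overlap for any of the 5. These alternatives show only how far the size of a difference moves. The log2 difference of Acta1, 1.14, was 2.13 with a pseudocount of 0.1, 1.58 with TPM and 2.41 with voom on recovered reads, where the added constant weighs less. With quantile normalization Actb was at -0.45 (-0.29 in the deposited scale) and Actg1 at 0.21 (0.40), and the share of Actg2 differed by 0.480 points (0.446). The cause was not tested. In shares of reads, not per length, the difference was 26.3 points for Acta2, 0.242 for Actg2 and -4.51 for Actg1. With GRCm38 exon union lengths, added after seeing the data, it was 27.2, 0.361 and -5.52 points for the same genes, as the weights of the genes change. Over all genes, 577 were higher and 664 lower with no filter (more genes tested), and 646 were higher with TPM (11163 genes tested). Leaving out 1 library gave 543 to 970 higher and 608 to 1056 lower.

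The replicate numbers showed no pairing of the libraries. Same-numbered libraries deviated from their group means with correlations of -0.306, -0.131 and -0.246, and no library correlated best with its own number. Deviations from a mean of 3 libraries depend on each other, so this is a description only. The fit with a replicate block gave 607 higher and 739 lower genes, and 2 in place of 7 rises among actin-related proteins. Depth limits Acta1, with 11 to 163 reads a library.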
